A study of Mus musculus with 20 samples.

Results

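The 44 genes described here build and run the machinery that copies DNA before a cell divides. They were taken from a list of named replication genes, and each was found by its symbol in GENCODE M21, so that they made up 44 of the 55573 genes counted. All 44 had enough counts to be among the 16509 genes tested. They were read gene by gene and as a mean over the list in 20 RNA-seq libraries of C57BL/6 mouse bone marrow. The mice were 7 to 9 weeks old, each library came from 2 mice and 1000 to 8000 sorted cells, and none carried a transgene or deletion that the labels name. All cells lacked lineage antigens, carried Sca-1 and c-Kit (the LSK gate) and lacked CD48. Haematopoietic stem cells (HSC) were CD150+ and multipotent progenitors (MPP) were CD150-, and both were split into cells with (Lepr+) and without (Lepr-) the leptin receptor on their surface. Each of the 4 groups had 5 libraries, numbered 1 to 5. Libraries with the same number are read here as pairs, since a number carries 1 date in all groups, but the labels do not state that they come from the same mice.

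Copying DNA starts with licensing. The origin recognition complex (Orc genes), Cdc6 and Cdt1 load the ring of Mcm2 to Mcm7 onto DNA, and Cdc45 and the GINS complex then turn that ring into the active helicase, known as CMG. Primase and the DNA polymerases make the new strands, held in place by the sliding clamp Pcna, which the Rfc complex loads, while RPA coats the single strands and ribonucleotide reductase and thymidylate synthase (Tyms) supply building blocks. Many of these genes are switched on together at the start of S phase by E2F factors, and HSC of adult marrow are known for dividing rarely.

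Promoters are shown for a few members because the group is known as a set of E2F targets. Of the 44 members, 37 had a promoter in RefSeq's sequences (build GRCm38.p6), which run from 250 bases before to 50 bases after a start site. Members without one were Mcm4, Gins1, Pole, Gins2, Rfc2, Prim2 and Gins4. The E2F-type motif TTTNGCGC, read on both strands, was present in 11 of the 37 (29.73%), against 424 of 27025 genes with a promoter (1.569%). The 11 were Mcm3, Mcm5, Mcm6, Mcm7, Orc1, Cdt1, Rfc3, Lig1, Pole2, Pola1 and Uhrf1. The following sequences are of Mcm5 (chr8:75109259-75109558, + strand, 2 overlapping matches), Mcm6 (chr1:128359656-128359955, - strand, 3 matches, of which 2 overlap), Rfc3 (chr5:151651159-151651458, - strand, 1 match) and Cdc45 (chr16:18811923-18812222, - strand, no match), written 5′ to 3′ along the gene with the motif in capitals. Mcm6 has the most matches, and Cdc45 had the largest called difference between HSC and MPP in both Lepr groups.
Mcm5: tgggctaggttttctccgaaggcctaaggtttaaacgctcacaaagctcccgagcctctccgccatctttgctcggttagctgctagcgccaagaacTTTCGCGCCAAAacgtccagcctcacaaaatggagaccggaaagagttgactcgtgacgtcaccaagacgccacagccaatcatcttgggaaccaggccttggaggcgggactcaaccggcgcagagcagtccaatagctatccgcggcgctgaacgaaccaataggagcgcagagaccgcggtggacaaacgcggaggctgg
Mcm6: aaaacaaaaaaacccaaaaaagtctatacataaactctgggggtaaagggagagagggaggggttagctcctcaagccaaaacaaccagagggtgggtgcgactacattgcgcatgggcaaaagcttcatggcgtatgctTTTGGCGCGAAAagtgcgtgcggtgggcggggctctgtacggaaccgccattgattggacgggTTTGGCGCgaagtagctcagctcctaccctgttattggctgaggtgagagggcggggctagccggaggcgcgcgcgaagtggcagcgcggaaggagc
Rfc3: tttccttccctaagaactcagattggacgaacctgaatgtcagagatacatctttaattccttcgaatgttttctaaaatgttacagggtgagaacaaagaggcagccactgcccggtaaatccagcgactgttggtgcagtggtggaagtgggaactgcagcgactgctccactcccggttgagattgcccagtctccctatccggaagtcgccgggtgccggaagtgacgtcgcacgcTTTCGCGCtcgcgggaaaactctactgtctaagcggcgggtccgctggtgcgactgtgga
Cdc45: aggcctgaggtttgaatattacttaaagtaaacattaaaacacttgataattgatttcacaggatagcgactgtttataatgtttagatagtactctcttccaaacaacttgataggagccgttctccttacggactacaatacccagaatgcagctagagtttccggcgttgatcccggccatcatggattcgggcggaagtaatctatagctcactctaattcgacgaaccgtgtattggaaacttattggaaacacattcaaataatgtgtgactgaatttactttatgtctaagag

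A match describes letters in this window and is not evidence that a factor binds there. Nor is a missing match evidence that none does. The CCAAT box, CCAAT on either strand, was in 24 of the 37 members (64.86%) and in 41.06% of all genes with a promoter. The cell cycle homology motif TTTGAA, on either strand, was in 5 of the 37 (13.51%) and in 20.23% of all genes. The 3 motifs were searched separately, and overlap between matches of different motifs was not looked at. The TTTNGCGC matches lay between 185 bases before the start site (Uhrf1) and 38 bases after it (Mcm3). The 11 members with a TTTNGCGC match and the 26 without one had like median differences between HSC and MPP. In Lepr- cells the median log2 differences were 0.69 with a match and 0.76 without one, and in Lepr+ cells 0.65 and 0.64. For Lepr+ against Lepr- they were -0.47 and -0.41 in HSC, and -0.47 and -0.19 in MPP. Of the 8 members called in Lepr- HSC against MPP that had a promoter, Mcm5 alone held a match.

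Libraries held 9532993 to 31589794 counts in genes, with a further 21.43% to 38.66% of counted read pairs given to no gene. Across all genes, Lepr+ MPP replicates 4 and 5 and Lepr+ HSC replicate 5 correlated least with the rest of their groups (mean r of 0.815 to 0.858). RNA of Slamf1, which encodes CD150, followed the sort, with 46.6 ± 13.4 CPM (counts scaled by library size; mean ± SD, n = 5) in Lepr- HSC, 41.3 ± 17.7 in Lepr+ HSC, 5.12 ± 3.83 in Lepr- MPP and 5.03 ± 3.01 in Lepr+ MPP. RNA of Cd48, whose protein was gated out, was present at mean levels of 10.5 CPM in Lepr+ HSC to 50.6 in Lepr- MPP. A replicate is a pool of 2 mice, so p-values measure the spread between pools. In RNA of sorted pools, fewer cells in S phase and less RNA per cell cannot be told apart.

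Read as 1 number per library, the replication genes were highest in Lepr- HSC, then in Lepr+ HSC, Lepr- MPP and Lepr+ MPP. The mean log2 CPM over the 44 genes was 6.81, 6.96, 7.18, 6.90 and 6.95 in Lepr- HSC replicates 1 to 5. It was 6.49, 6.59, 6.801, 6.54 and 6.30 in the Lepr+ HSC replicates. These groups do not overlap. Lepr- MPP stood at 6.18, 6.11, 6.32, 6.11 and 6.39, and Lepr+ MPP at 6.08, 5.67, 6.13, 5.49 and 6.03. The ranges of Lepr+ HSC and Lepr- MPP overlap, as do those of the MPP groups, while each HSC group of 1 receptor status lay above the MPP group of the same status. Group means were 6.96 ± 0.14, 6.54 ± 0.18, 6.22 ± 0.13 and 5.88 ± 0.29 (SD, n = 5) in that order.

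**Figure D1:**
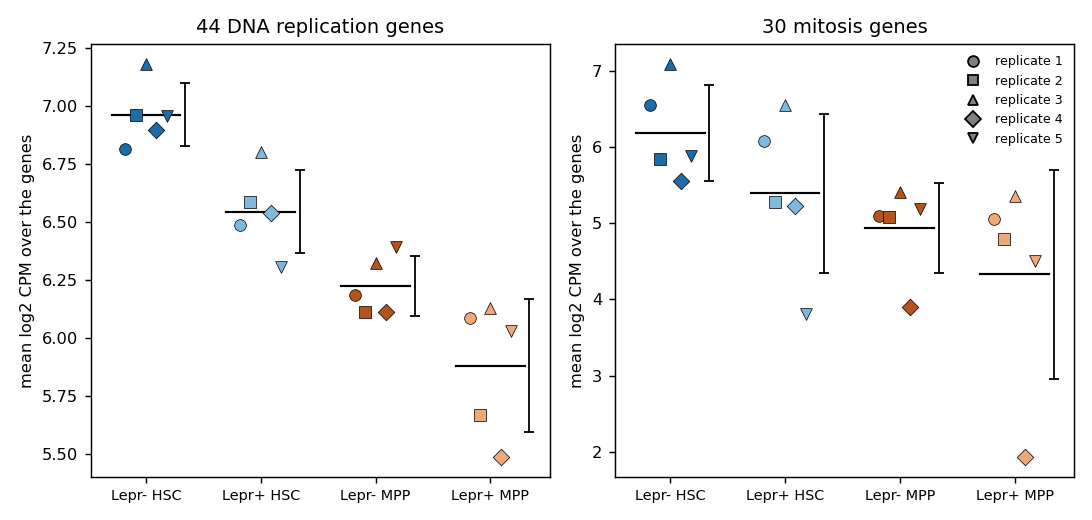
Mean log2 CPM over the 44 replication genes (left) and over 30 mitosis genes (right) in each library, by group; the marker shape gives the replicate number, the line the group mean and the bar 1 SD to each side. The replication mean is 6.96 in Lepr- HSC and 5.88 in Lepr+ MPP, and the mitosis mean of Lepr+ MPP replicate 4 lies at 1.93, below all other libraries.

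Pair by pair, the mean over the list pointed one way in each comparison. HSC were above MPP by 0.74 log2 units in Lepr- cells (5 of 5 pairs, from 0.56 to 0.86) and by 0.66 in Lepr+ cells (5 of 5 pairs, from 0.27 to 1.05). The Lepr+ minus Lepr- difference was -0.42 in HSC (lower in 5 of 5 pairs, from -0.65 to -0.32) and -0.34 in MPP (lower in 5 of 5 pairs, from -0.62 to -0.10). File names carry a June date for replicates 1, 3 and 5 and a July date for 2 and 4. For HSC against MPP the June and July libraries alone gave 0.68 and 0.82 in Lepr- cells and 0.45 and 0.98 in Lepr+ cells. For Lepr+ against Lepr- they gave -0.45 and -0.37 in HSC and -0.22 and -0.53 in MPP. Without the 3 libraries that correlated least with their groups, the differences were 0.74, 0.64, -0.36 and -0.26.

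Levels of different members are compared here per kilobase of merged exons. In Lepr- HSC the median member had 39.6 CPM per kilobase, in Lepr+ HSC 28.4, in Lepr- MPP 22.4 and in Lepr+ MPP 18.8. Mcm6, a subunit of the helicase ring, was first in all 4 groups, with 185 ± 48.3, 144 ± 43.3, 148 ± 22.8 and 108 ± 32.4 CPM per kilobase (SD, n = 5). Pold2, the small subunit of DNA polymerase delta, was next in 3 groups, and in Lepr- MPP it came after Mcm3. Its 160 ± 48.1 CPM per kilobase in Lepr- HSC differed from Mcm6 by less than their SDs. Fen1, which trims the flaps of Okazaki fragments, was last in all 4 groups, at 0.53 to 0.95 CPM per kilobase. In the annotation 84.2% of the exon bases of Fen1 are also exons of Gm10143 or Tmem258, and the files set read pairs of more than 1 gene aside as ambiguous, so its level is uncertain. The same caution holds for Gins2 (67.3% shared with Gse1) and Chaf1a (52.5%, Ubxn6), since reads carry no strand. It holds less for Rfc2 (15.1%), Rfc4 (12.7%), Mcm7 (12.6%), Orc1 (10.8%), Rfc5 (10.7%), Pole2 (8.50%), Slbp (7.80%), Orc6 (6.93%), Cdc45 (5.96%) and Lig1 (5.79%). Pcna and Tyms have pseudogenes named in the annotation that may share reads.

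The order near the top depends on the length used, an alternative chosen after the values were seen. Per kilobase of the longest coding transcript, Mcm6 was first in 3 groups, with 199 ± 51.8 CPM per kilobase in Lepr- HSC, and Pcna was first in Lepr+ HSC, with 180.3 ± 60.4 against 155 ± 46.4 for Mcm6 (SD, n = 5). Mcm2 moved most among the ring subunits named here, from 73.7 ± 23.2 to 152 ± 47.8 CPM per kilobase in Lepr- HSC, since its merged exons span 6956 bases and its longest coding transcript 3371. Fen1 was last in all 4 groups by either length.

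Stem cells without surface Lepr had more RNA of 10 replication genes than progenitors without it, and less of none. Calls are at an adjusted p under 0.05 in edgeR's quasi-likelihood test with Benjamini-Hochberg adjustment over all genes tested. Over those genes, 1.22% were called higher in HSC. All members but Rfc1 had a positive log2 difference (43 of 44), with a median of 0.71, where the median over all genes was 0.01. With the replicate number as a block, 18 members were called higher, against 4.07% of all genes. HSC and MPP libraries did not overlap for 14 members, against 2.79% of genes higher without overlap.

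Helicase activation held the largest difference. Cdc45 (ENSMUSG00000000028.15, chromosome 16, 18780447 to 18811987, - strand, GRCm38), the factor that joins the Mcm ring to make CMG, stood at 74.3, 82.0, 95.3, 131 and 61.3 CPM in Lepr- HSC replicates 1 to 5. In Lepr- MPP it stood at 31.4, 31.3, 31.2, 23.99 and 30.4 CPM. No stem cell library came near the progenitor range, and the log2 fold change was 1.58 ± 0.21 (SE; 2.99-fold; edgeR adjusted p = 0.000176). Gins1, Gins2 and Gins3, subunits of the GINS complex, were higher by 1.17 ± 0.30, 1.10 ± 0.27 and 1.10 ± 0.28 (edgeR adjusted p = 0.0359, 0.0293 and 0.0377), and in each the groups did not overlap. Gins4, the remaining subunit, had a log2 difference of 0.33 ± 0.19 (adjusted p = 0.545). Mcm10, which helps to start the helicase, spread from 17.4 to 92.8 CPM in Lepr- HSC and from 12.02 to 29.2 in Lepr- MPP, and its difference of 1.11 ± 0.65 did not pass (adjusted p = 0.564).

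In the licensing group, Orc6 (the smallest origin recognition subunit) was called and 3 members were not. Orc6 stood at 76.8, 78.9, 77.0, 115 and 83.1 CPM in Lepr- HSC, and at 38.2, 39.8, 38.8, 49.9 and 36.3 in Lepr- MPP. No stem cell library came near the progenitor range (log2 fold change 1.09 ± 0.22, edgeR adjusted p = 0.00783). Cdt1, which brings the ring to DNA, had 0.73 ± 0.29 (adjusted p = 0.267).

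Of the helicase ring, Mcm5 was called, with 381, 531, 626, 633 and 435 CPM in Lepr- HSC and 287, 293, 337, 249 and 362 in Lepr- MPP. Its lowest stem cell library lay just above the highest progenitor library, for a log2 fold change of 0.77 ± 0.18 (edgeR adjusted p = 0.0195). The other 5 subunits, Mcm2, Mcm3, Mcm4, Mcm6 and Mcm7, had log2 differences of 0.33 to 0.68 and were not called. Mcm6 had 688, 1012, 1192, 704 and 732 CPM in HSC and 660, 714, 851, 558 and 667 in MPP, so the ranges of this most abundant member overlap. Whether the ring and its activators differ in their change was not tested.

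Of the clamp and its loader, Rfc5 passed. This clamp loader subunit had 234, 337, 266, 378 and 297 CPM in Lepr- HSC and 121, 136, 127, 131 and 138 in Lepr- MPP. The stem cell values all lay well above the progenitor values (log2 fold change 1.21 ± 0.16, 2.31-fold, edgeR adjusted p = 0.000176). Pcna, the clamp itself, had 236, 273, 247, 368 and 353 CPM in HSC and 159, 138, 144, 263 and 180.0 in MPP. Replicate 4 is the highest of both groups, and within each pair HSC were higher. Pcna and Rfc3 were called with the block alone (0.75 and 0.59 in that fit, edgeR adjusted p = 0.00257 and 0.0459), and without it Pcna had 0.74 ± 0.28 (adjusted p = 0.234). Rfc1, the large subunit, was the one member with a negative difference (-0.21 ± 0.81, adjusted p = 0.976), and its libraries ranged from 14.9 to 166 CPM in Lepr- HSC alone.

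Among the polymerases and primase, Prim1, the catalytic primase subunit that lays the RNA primer, was called. It stood at 136, 188, 132, 141 and 159 CPM in Lepr- HSC and at 70.6, 55.3, 64.0, 111 and 61.0 in Lepr- MPP. The groups did not overlap, although replicate 4 of the progenitors came closest (log2 fold change 1.06 ± 0.21, edgeR adjusted p = 0.00587). Pold2 had 178, 366, 248, 404 and 318 CPM in HSC and 125, 147, 165, 253 and 159 in MPP, with HSC higher in 5 of 5 pairs. It was called with the block (0.81 ± 0.17, edgeR adjusted p = 0.0068) and not without it (adjusted p = 0.122). The catalytic subunit of that polymerase, Pold1, had 0.61 ± 0.27 (adjusted p = 0.357), and Pola1, Pola2, Prim2, Pold3, Pole and Pole2 were called in neither fit. Of the RPA genes, Rpa2 and Rpa3 were called with the block alone (0.50 and 0.91 in that fit, edgeR adjusted p = 0.00958 and 0.0357). Rpa2 stood at 188 to 218 CPM in HSC and at 121 to 199 in MPP, where replicate 4 alone reached the stem cell range.

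Genes of deoxynucleotide supply held the next largest differences. Tyms, which makes thymidylate, stood at 240, 248, 198, 298 and 326 CPM in Lepr- HSC and at 90.9, 62.4, 74.4, 112 and 123 in Lepr- MPP. The log2 fold change was 1.501 ± 0.23 (2.83-fold, edgeR adjusted p = 0.000695). Rrm2, the ribonucleotide reductase subunit whose level follows S phase, had 140, 166, 196, 225 and 191 CPM against 52.5, 50.5, 71.8, 94.2 and 113. Both genes were above every progenitor library in every stem cell library, and Rrm2 rose by 1.26 ± 0.25 (edgeR adjusted p = 0.00674). Dut, which removes dUTP, stood at 222 to 494 CPM in HSC and at 105 to 210 in MPP, without overlap. It was called with the block (1.11 ± 0.18, edgeR adjusted p = 0.00119) and not without it (1.13 ± 0.34, adjusted p = 0.0863). Slbp, the histone mRNA binding protein, and Chaf1b, a chromatin assembly subunit, were also called with the block alone (0.70 and 0.48, edgeR adjusted p = 0.00633 and 0.0136). Rrm1, the large reductase subunit, had 0.78 ± 0.36 (adjusted p = 0.39) and ranged from 235 to 605 CPM in HSC. Neither Fen1 nor Lig1, which joins Okazaki fragments, was called in either fit, and the same holds for Chaf1a and for Uhrf1, which helps to copy DNA methylation.

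**Figure D2:**
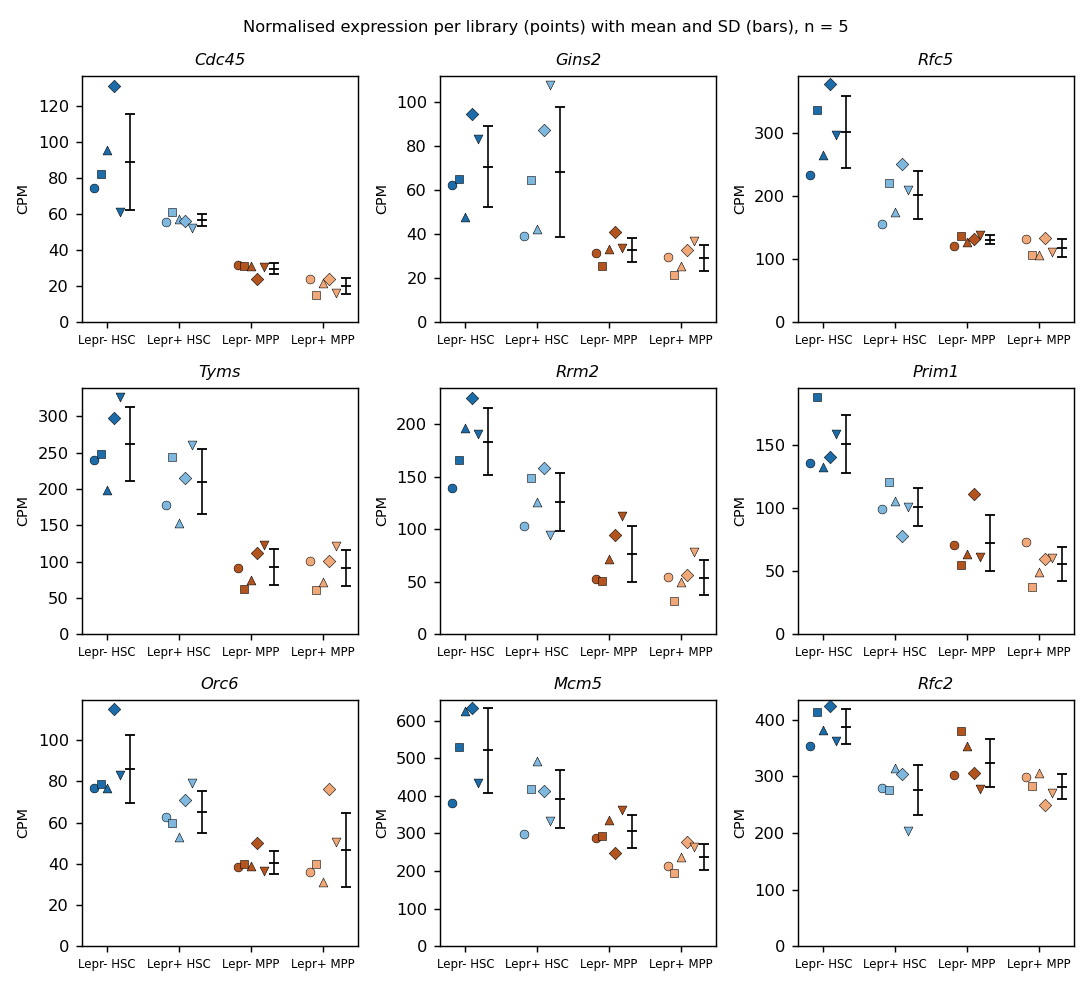
CPM in each library for 9 members (Cdc45, Gins2, Rfc5, Tyms, Rrm2, Prim1, Orc6, Mcm5 and Rfc2) by group. Cdc45 in Lepr- HSC runs from 61.3 to 131 CPM, above all 5 Lepr- MPP libraries, which lie between 23.99 and 31.4.

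Lepr+ stem cells also had more RNA of replication genes than Lepr+ progenitors. Called higher were 5 members, Cdc45, Gins2, Rfc5, Rrm2 and Tyms, against 0.26% of all genes. All 5 were among the 10 called in Lepr- cells (50% of the 10 and 100% of the 5). The 2 comparisons share no library, but they come from 1 fit, and libraries of the same number share a date. None was called lower, 42 of 44 differences were positive, and the median was 0.63 against -0.02 over all genes. With the block, 12 members were called, against 1.13% of all genes, and 11 of the 12 were among the 18 called so in Lepr- cells. Libraries did not overlap for 8 members, against 1.11% of genes higher without overlap.

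Cdc45 stood at 55.6, 61.3, 57.3, 55.9 and 51.9 CPM in Lepr+ HSC and at 23.8, 15.1, 21.5, 24.1 and 15.97 in Lepr+ MPP. The groups lay far apart (log2 fold change 1.49 ± 0.21, 2.81-fold, edgeR adjusted p = 0.00186). Tyms had 177, 244, 153, 216 and 261 CPM in HSC and 101, 61.2, 71.4, 101 and 121 in MPP (1.21 ± 0.23, edgeR adjusted p = 0.0176). Rfc5 had 155, 221, 175, 252 and 210 against 133, 107, 107, 134 and 111 (0.78 ± 0.16, edgeR adjusted p = 0.0265). In Rfc5 the groups are separate by a smaller margin than in Cdc45. Rrm2 and Gins2 were higher by 1.22 ± 0.25 and 1.23 ± 0.27 (edgeR adjusted p = 0.0294 and 0.0480). Rfc4, a clamp loader subunit, was called with the block in these cells (1.07 ± 0.24, edgeR adjusted p = 0.0358) and was not called with it in Lepr- cells (0.75 ± 0.24, adjusted p = 0.0754), a difference that was not tested as such.

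These counts moved with single libraries. In Lepr- cells the count was 6 without Lepr- MPP replicate 2 and 7 to 9 without any other library. In Lepr+ cells it was 1 without Lepr+ HSC replicate 2, Lepr+ MPP replicate 2 or Lepr+ MPP replicate 3, and 2 without Lepr+ HSC replicate 4. It was 3 without Lepr+ HSC replicate 5 or Lepr+ MPP replicate 1, 4 or 5. Cdc45 was called in both comparisons with any 1 library left out, with an adjusted p of at most 0.000918 in Lepr- cells and 0.0104 in Lepr+ cells. Rfc5, Tyms, Rrm2, Prim1 and Orc6 also kept their call in all 10 such fits of Lepr- cells.

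**Figure D3:**
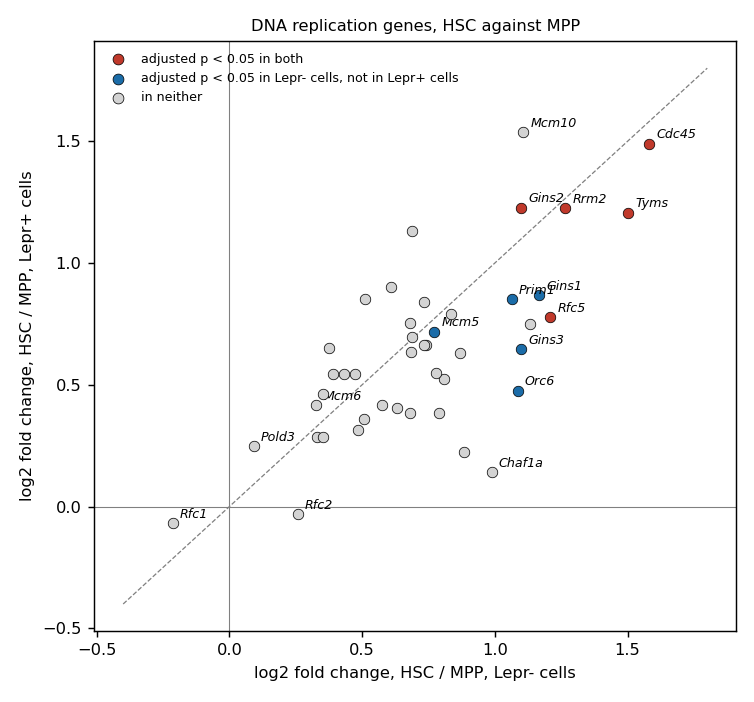
Log2 fold change of HSC against MPP in Lepr- cells (x axis) and in Lepr+ cells (y axis) for the 44 members, with members called in both in red, in Lepr- cells alone in blue and in neither in grey; the dashed line marks equal changes. Cdc45 lies at 1.58 and 1.49, Rfc1 lies below 0 in both and Rfc2 below 0 in Lepr+ cells alone.

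Between Lepr+ and Lepr- stem cells, no replication gene was called in the fit without the block, although nearly all stood lower in Lepr+ cells. The background was 0.00606% of genes called lower. At an unadjusted p under 0.05, 8 of 44 members were lower and none higher, where 368 of 16509 genes were lower and 781 higher. Log2 differences were negative for 41 of 44, with a median of -0.43 against 0.00 over all genes, and they ran from -0.91 to 0.08. In 23 members all 5 pairs were lower in Lepr+ cells, but the share of all genes with 5 lower pairs was not counted. With the replicate block 2 members were called lower, against 0.26% of all genes, and DESeq2 without a block called the same 2. Of all 16509 genes DESeq2 called 29 lower, where edgeR without the block called 1.

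Both called members are subunits of the clamp loader. Rfc2 stood at 354, 414, 383, 424 and 362 CPM in Lepr- HSC replicates 1 to 5 and at 279, 276, 315, 305 and 203 in Lepr+ HSC. The groups did not overlap, and the log2 difference was -0.50 ± 0.10 with the block (edgeR adjusted p = 0.0261) and -0.49 ± 0.14 without it (edgeR adjusted p = 0.238). Rfc5 had 155, 221, 175, 252 and 210 CPM in Lepr+ HSC, each below the Lepr- library of the same number. Its groups overlap only through the highest Lepr+ library, and it fell by 0.58 on the log2 scale with the block (SE 0.12, edgeR adjusted p = 0.0261; 0.204 without it). DESeq2's adjusted p was 0.0176 for Rfc2 and 0.0219 for Rfc5. The block called 0 members when the 3 libraries that correlated least were left out, and 0 when any 1 of the 5 replicate numbers was left out of all groups.

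Cdc45 and Prim1 were the other members whose stem cell groups did not overlap, which makes 3 with Rfc2, against 0.618% of genes lower without overlap. Their log2 differences were -0.65 ± 0.20 and -0.58 ± 0.21 (edgeR adjusted p = 0.311 and 0.442). Cdc6, which loads the ring with Cdt1, had the lowest difference of all members. It stood at 82.3, 81.2, 132, 71.7 and 61.5 CPM in Lepr- HSC and at 54.8, 47.5, 77.3, 34.5 and 14.2 in Lepr+ HSC. Each pair was lower in Lepr+ cells, but the ranges overlap, and -0.91 ± 0.35 did not pass (edgeR adjusted p = 0.519). Rrm1 and Rrm2, the 2 subunits of ribonucleotide reductase, had -0.62 ± 0.36 and -0.54 ± 0.25 (adjusted p = 0.889 and 0.676). At the other end Gins4 (0.02), Rfc1 (0.08) and Fen1 (0.00) had differences near 0.

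Between Lepr+ and Lepr- progenitors no member was called with or without the block, or by DESeq2, and 0.0242% of all genes were called lower. At an unadjusted p under 0.05, 6 members were lower and none higher in edgeR, where 178 of 16509 genes were lower and 550 higher. Differences were negative for 37 of 44, with a median of -0.24 against 0.01 over all genes. All 5 pairs were lower in 16 members, and here too the share of all genes with 5 lower pairs was not counted. Mcm7 was the 1 member without overlap, against 0.448% of genes lower without overlap. It stood at 328, 318, 385, 397 and 449 CPM in Lepr- MPP and at 299, 230, 291, 231 and 288 in Lepr+ MPP (-0.49 ± 0.18, edgeR adjusted p = 0.64). Rfc4 had -0.80 ± 0.30 and Pold1, the catalytic subunit of polymerase delta, -0.72 ± 0.27 (edgeR adjusted p = 0.665 and 0.674). Mcm10 had the lowest difference, -1.06 ± 0.65, and stood at 0.11 CPM in Lepr+ MPP replicate 4, where the other Lepr+ MPP libraries had 4.05 to 20.4. Gins3 had the highest, 0.36 ± 0.28. All 6 subunits of the helicase ring had negative differences in both Lepr comparisons, with medians of -0.42 in HSC and -0.51 in MPP, and none was called.

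The Lepr difference in stem cells was also set against that in progenitors. No member was called for a different effect, at a background of 0% of genes, and none had an unadjusted p under 0.05 in edgeR (1 in DESeq2, 3 with the block). Of all 16509 genes, 529 had one in edgeR, 625 in DESeq2 and 830 with the block. The differences of effects had a median of -0.07 and ran from -0.85 (Chaf1a) to 0.44 (Rfc4). The lowest Lepr- MPP library of Chaf1a had 0.07 CPM, where the median of that group was 34.8. A missing call does not show that the effects are alike.

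**Figure D4:**
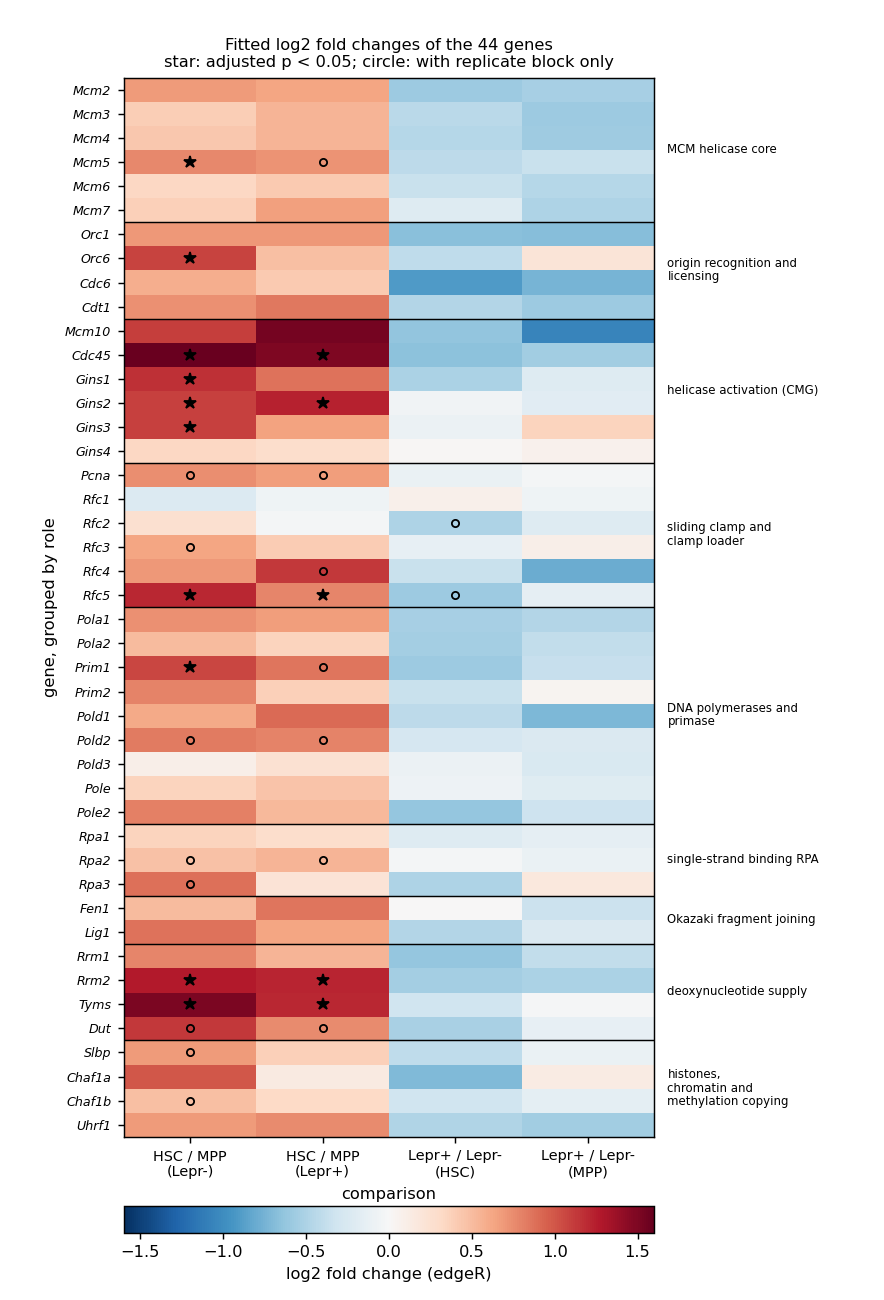
Fitted log2 fold changes of the 44 members, in rows grouped by role, for the 4 comparisons; red is higher and blue lower in the first-named group, stars mark an edgeR adjusted p under 0.05 and circles those called with the replicate block alone. The HSC against MPP columns hold 10 and 5 stars, and the Lepr columns hold none and 2 circles.

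Genes around the replication set were read from further lists. Of 38 tested replication factors outside the 44, 3 were called higher in Lepr- HSC than in Lepr- MPP (6 with the block; median log2 difference 0.44). They were Asf1b, a histone chaperone (1.81 ± 0.29, edgeR adjusted p = 0.00112), Tipin, of the fork protection complex (0.98 ± 0.16, adjusted p = 0.00122), and Gmnn, the inhibitor of Cdt1 (1.05 ± 0.23, adjusted p = 0.0141). Asf1b was also called in Lepr+ cells (1.55 ± 0.29, edgeR adjusted p = 0.0176), as the 1 call of that list there (3 with the block). Of 23 nucleotide supply genes, 3 were called higher and 1 lower in Lepr- HSC, or 9 and 1 with the block. Tk1, which salvages thymidine, had the largest rise (1.95 ± 0.29, edgeR adjusted p = 0.000531), and Impdh1, of guanine synthesis, fell by 0.77 (SE 0.20, adjusted p = 0.0377). Of 30 G1/S and E2F control genes, 4 were called higher in Lepr- HSC (9 with the block) and 0 in Lepr+ HSC (2 with the block). Among the 4 were E2f1 (1.07 ± 0.27, edgeR adjusted p = 0.0332), Ccne2 (1.75 ± 0.45, adjusted p = 0.0372) and Ccnd3 (0.85 ± 0.15, adjusted p = 0.00275).

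Among these 4 further lists, the mitosis genes, which act after replication, held the most calls. Of 30, 10 were called higher in Lepr- HSC than in Lepr- MPP (12 with the block) and 6 in Lepr+ HSC than in Lepr+ MPP (9 with the block), with medians of 1.26 and 0.93. Aurkb, a kinase of chromosome segregation, had 157 ± 22.1 CPM in Lepr- HSC and 32.9 ± 5.64 in Lepr- MPP (SD, n = 5), a log2 fold change of 2.25 ± 0.23 (edgeR adjusted p = 2.37e-05). None of the tested genes of these lists was called in a Lepr comparison without the block, and with it Cdc20 and Cdk6 were lower and Cdkn1c was higher in Lepr+ HSC (edgeR adjusted p = 0.0372, 0.00314 and 0.0481).

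Markers of other cells were read in the same groups, and the lists did not all follow the order of the replication genes. The megakaryocyte list of 10 genes, 8 of them tested, summed to 2740 to 5708 CPM in Lepr- HSC, 1469 to 2993 in Lepr+ HSC, 594 to 975 in Lepr- MPP and 614 to 1205 in Lepr+ MPP. Of the 8, 6 were called higher in Lepr- HSC than in Lepr- MPP and 2 in Lepr+ HSC than in Lepr+ MPP (7 and 6 with the block). Gp6 was at 0 in all Lepr- libraries and Gp1bb in all Lepr+ MPP libraries. With the block, 2 of the 8 were called lower in Lepr+ than in Lepr- HSC. Stromal markers (14 genes) summed to 166 to 4030 CPM in Lepr+ MPP and to at most 229 in any other library, and 6 of 14 were called higher in Lepr+ than in Lepr- MPP (3 with the block). Sums of B and plasma cell markers (12 genes) reached 4478 CPM in Lepr+ MPP, 644 in Lepr+ HSC, 280.1 in Lepr- MPP and 110 in Lepr- HSC. Endothelial markers (12 genes, 11 tested) summed to 419 to 972 CPM in Lepr- HSC, 315 to 742 in Lepr+ HSC, 58.9 to 253 in Lepr- MPP and 225 to 707 in Lepr+ MPP. Of these, 1 was called higher in Lepr- HSC than in Lepr- MPP, and 4 were called higher in Lepr+ MPP (1 with the block). Erythroid markers (15 genes, 14 tested) summed to 1652 to 3420 CPM over all libraries, with no separation of HSC from MPP. For Lepr+ against Lepr-, 12 of the 14 had negative log2 differences in HSC and 13 in MPP, with medians of -1.55 and -1.29. Of the 14, 1 was called lower in Lepr+ than in Lepr- MPP (0 with the block). Another call was 1 higher in Lepr+ HSC than in Lepr+ MPP. T and NK cell markers (12 genes, 6 tested) had median sums of 187 CPM in Lepr- HSC, 90.1 in Lepr+ HSC, 231 in Lepr- MPP and 124 in Lepr+ MPP. Neutrophil and monocyte markers (14 genes) had median sums of 715, 847, 872 and 987 CPM in that order. A list of 12 stem and progenitor identity genes summed to 1869 to 2569 CPM in Lepr- HSC, 2635 to 3017 in Lepr+ HSC, 3704 to 4706 in Lepr- MPP and 2952 to 4414 in Lepr+ MPP. Of those 12, 2 were called higher and 5 lower in Lepr- HSC than in Lepr- MPP, and 2 were higher in Lepr+ than in Lepr- HSC. The part of these cells in the replication values was not tested.

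The level of a member also moved with its length from library to library. The split was made after the values were seen, at the median longest coding transcript of the members, 2879 bases, which gave 22 shorter and 22 longer genes. The mean log2 CPM of the longer genes minus that of the shorter genes ran from -0.92 in Lepr+ MPP replicate 4 to 1.36 in Lepr- HSC replicate 3. It was 1.36, 1.34, 1.27 and 1.26 in replicate 3 of the 4 groups, and 0.06, 0.12, 0.04 and -0.92 in replicate 4. Among tested genes with a coding transcript, the longer (7147) minus the shorter (5912) deviated from their means over all libraries by 0.39, 0.40, 0.37 and 0.44 in replicate 3 and by -0.54, -0.29, -0.43 and -0.65 in replicate 4. Libraries of replicates 4 and 5 were the shallowest, with 9532993 to 15052009 counts. In replicate 5 the longer minus the shorter members gave 0.51, 0.04, 0.94 and 0.48. Among all tested genes with a coding transcript it gave deviations of -0.27, -0.52, 0.08 and -0.17. The part of depth was not tested.

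**Figure D5:**
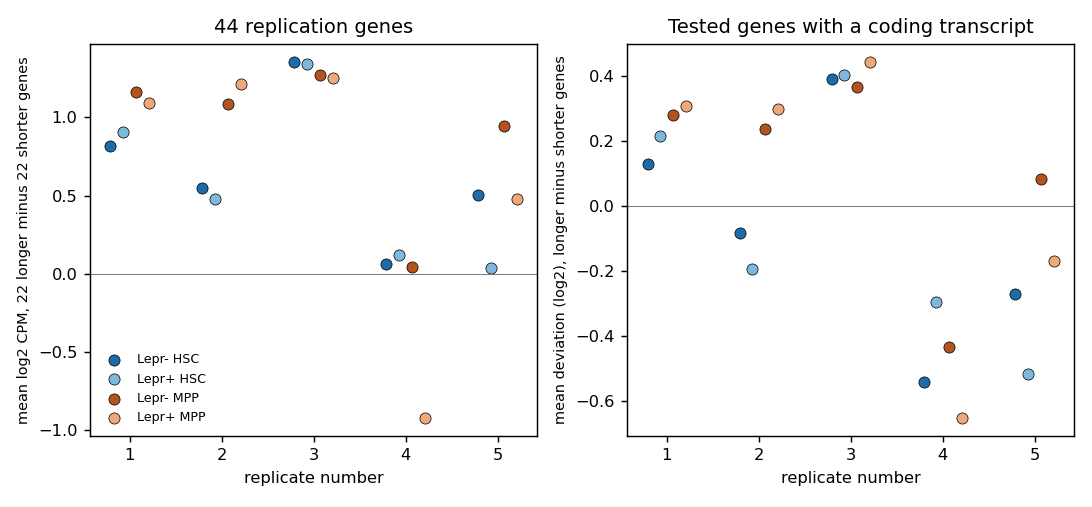
Left, mean log2 CPM of the 22 longer minus the 22 shorter replication genes in each library; right, mean deviation from each gene's mean over libraries for longer minus shorter genes, over tested genes with a coding transcript, by replicate number and group. Replicate 3 is the highest in every group in both panels, with Lepr+ MPP replicate 4 at -0.92 on the left and -0.65 on the right.

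The spread within a group was wide for some long members. Rfc1 had 115 and 166 CPM in Lepr- HSC replicates 1 and 3, but 14.9 and 18.7 in replicates 2 and 4. Lig1 had 8.35 CPM in Lepr+ MPP replicate 4 against 72.0 to 131 in the other libraries of that group. The median SE of a fold change in Lepr- HSC against MPP was 0.26 among the shorter and 0.32 among the longer members. Calls fell unevenly: 7 shorter and 3 longer members were called in Lepr- HSC against MPP, and 15 and 3 with the block. The shares called among all shorter and all longer genes were not counted. The direction was shared by both sets, with median log2 differences of 0.80 (shorter) and 0.64 (longer) in Lepr- cells and 0.65 and 0.59 in Lepr+ cells. For Lepr+ against Lepr- HSC the medians were -0.41 and -0.44, and for MPP -0.15 and -0.42. The part of length in which members were called was not tested.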

How the data were processed

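RNA of sorted cells was copied with SMART-Seq v4 chemistry, per the labels, and sequenced as unstranded read pairs. A label also describes the material as rRNA-depleted total RNA, which does not match that chemistry, and the counter's rule for overlapping genes is not given in the sources used here. Trimming and quality tools named in the submitters' processing notes are cutadapt 2.1 and FastQC 0.11.8. Those notes also name the aligner STAR 2.7.1a, the counter HTSeq 0.11.2, DESeq2 and build GRCm38. The deposited files hold raw counts per gene, whole numbers without normalization by the authors. Read pairs assigned to no gene (21.43% to 38.66%) were kept out of library sizes.

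GENCODE M21 names were found for 55480 of 55573 genes. Counts were tested with edgeR 4.0.16: TMM scaling, filterByExpr (count at least 10, total at least 15), robust quasi-likelihood fits of all 20 libraries by group alone, two-sided, with Benjamini-Hochberg adjustment over 16509 genes at a threshold of 0.05, after a check on simulated data. List means used log2 CPM with a prior count of 2. CPM carry the SD over 5 libraries and fold changes the fitted SE. Alternatives were RLE scaling, DESeq2 1.42.0, limma 3.58.1 voom, no filter, a replicate block, single dates and left-out libraries. The members, lists and comparisons were chosen with earlier results of these data known.

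By rule, members were named where called with or without the block, or with the smallest p or highest level within a role, and genes of other lists by smallest p. Others, among them Slamf1, Cd48, Gp6, Rfc1, Mcm10 and Chaf1a, were named after their values were seen. Pools of 2 mice make up a replicate, and each number has 1 date in all groups, so numbers were read as pairing the libraries, which the labels do not state outright. Deviations from group means correlated at a median of 0.264 over 30 pairs of libraries with the same number (range -0.06 to 0.56) and -0.086 over 120 other pairs. Since deviations cancel within a group, positive values for the same number push those of other pairs to the negative side by construction.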

Additional observations from a re-analysis of the deposited data

Results flagged for a closer look

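The check for a library far from the other 4 covered 31 members named by rule and the list mean, in each of 4 groups. Of these 128 combinations 3 stood apart, and chance alone would set apart about 1 in 20. Lig1 stood at a log2 CPM of 3.08 in Lepr+ MPP replicate 4 (8.35 CPM, against 72.0 to 131 in the other libraries of its group). Cdc45 stood at 4.59 in Lepr- MPP replicate 4 (23.99 CPM, against 30.4 to 31.4). Orc6 stood at 6.85 in Lepr- HSC replicate 4 (115 CPM, against 76.8 to 83.1). All 3 libraries carry the replicate number 4. Members outside the 31 were not checked, among them Chaf1a, whose lowest Lepr- MPP library had 0.07 CPM at a group median of 34.8.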

How the results depend on the processing

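No called value changed direction. For Lepr+ against Lepr- HSC, 0 members were called except with DESeq2 (2) and the replicate block (2). For HSC against MPP in Lepr- cells (10 called), the block gave 18, June dates alone 1 (11 with the block), July dates alone 0 with or without the block, and leaving out single libraries 6 to 9. With the block, leaving out 1 replicate number in all groups gave 12, 15, 12, 17 and 16 (numbers 1 to 5), and leaving out the 3 libraries that correlated least with their groups gave 29. Counts over all genes in these fits with the block are not given here. In Lepr+ cells (5 called), DESeq2 gave 9, the block 12, a fit of the 2 groups only 0, June or July dates alone 0, the dates with the block 2 and 0, and single libraries left out 1 to 6. DESeq2 called 191 of all 16509 genes higher in that comparison. There, leaving out the 3 libraries gave 3, or 8 with the block, and leaving out 1 replicate number with the block gave 6, 4, 4, 10 and 8. Where July alone called 0 in edgeR, 11 (Lepr-) and 14 (Lepr+) members had an unadjusted p under 0.05, and 13 where June alone called 0 in Lepr+ cells. With 2 groups alone 15 had one. Over all genes tested, July alone gave 798 (Lepr-) and 839 (Lepr+) of 15464. June alone gave 822 of 17713 in Lepr+ cells, and the 2 groups alone 844 of 14704. These settings hold fewer samples. For July alone the mean over the members differed by 0.98 between HSC and MPP in Lepr+ cells and by 0.17 between the Lepr effects (-0.07 with all libraries). The block changed no other count of called members. The fits by date with the block, the block with libraries left out, the length split and the transcript length used for levels were chosen after seeing the data. Fen1 had the lowest counts of the members, at group means of 1.27 to 2.30 CPM, and shares most of its exon bases with other genes.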
